A study of Mus musculus with 5 samples.

Results

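The PGC-1 coactivators and the transcription factors through which they act on mitochondria were examined in myocyte mRNA of the mouse soleus. The set held 10 named genes, *Ppargc1a*, *Ppargc1b*, *Pprc1*, *Esrra*, *Esrrb*, *Esrrg*, *Nrf1*, *Gabpa*, *Tfam* and *Tfb2m*. A probe set carrying a single symbol of the set was found for 9 of them, 1 probe set each, of 19505 genes on the array. *Esrra* was not analysed here, since no probe set was paired with it in the annotation used. The 5 animals were HA-RiboTagMyo mice, a cross of Myogenin-Cre with the RiboTag-Rpl22fl/fl-HA line, all sedentary, numbered 1, 3, 11, 14 and 16, and the left soleus of each went onto 1 Clariom S array. The labels give neither age nor sex, and the study's methods describe male mice, harvested after a short fast, unless otherwise stated. Y-linked *Eif2s3y* read 3.54 and 3.53 in mice 1 and 16, below background, and between 10.42 and 12.73 in the others, so the counts of the set, the spread of *Ppargc1a* and the genes nearest to it are also given over mice 3, 11 and 14 alone. Cre is driven by *Myog* in these mice: wherever myogenin has been expressed, ribosomes contain an HA-tagged RPL22, and the RNA measured is what was pulled down with them. In such a bulk preparation, fewer cells of a type and less RNA per cell cannot be told apart. With 1 group, and no unprecipitated muscle or untagged animal analysed here, the values are levels and not enrichments or responses.

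PGC-1 proteins do not bind DNA themselves. They dock onto nuclear receptors and other transcription factors and bring in the machinery that opens chromatin and starts transcription. In oxidative muscle such as the soleus, PGC-1α, encoded by *Ppargc1a*, is best known for its induction by contraction and fasting and for driving mitochondrial biogenesis and fatty acid oxidation. Its main partners are the estrogen-related receptors (ERRs) and the nuclear respiratory factors NRF1 and GABP. These raise nuclear genes for respiration, among them those for TFAM and TFB2M, which enter mitochondria and help to start transcription of the mitochondrial genome.

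The promoters of 4 genes are shown because the results below turn on them or because they hold a short motif of a factor in the set. Each is the 250 bases before the transcript start from RefSeq, build GRCm38.p6, written 5′ to 3′ on the strand of the gene, with the motif match in capitals. *Ppargc1a* lies at chr5:51567726-51567975 on the minus strand and carries 1 short form of the cyclic AMP response element (CRE), on the opposite strand, 49 bases before the start. *Gabpa* lies at chr16:84834874-84835123 on the plus strand, with 1 GABP motif on the opposite strand 93 bases before the start. *Tfam* lies at chr10:71238045-71238294 on the minus strand, with 1 GABP motif 47 bases before the start. *Perm1*, encoding a muscle regulator induced by PGC-1 and ERR, lies at chr4:156215677-156215926 on the plus strand, with 1 ERR motif on the opposite strand 202 bases before the start.
Ppargc1a: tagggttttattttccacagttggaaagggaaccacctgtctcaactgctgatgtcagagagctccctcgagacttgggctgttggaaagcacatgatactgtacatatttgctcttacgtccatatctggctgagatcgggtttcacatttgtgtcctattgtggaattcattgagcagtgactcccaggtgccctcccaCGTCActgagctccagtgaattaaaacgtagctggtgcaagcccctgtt
Gabpa: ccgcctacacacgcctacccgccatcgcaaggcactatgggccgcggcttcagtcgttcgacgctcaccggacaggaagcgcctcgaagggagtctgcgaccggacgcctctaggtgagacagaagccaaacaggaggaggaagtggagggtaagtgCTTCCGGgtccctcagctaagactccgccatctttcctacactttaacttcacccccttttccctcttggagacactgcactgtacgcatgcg
Tfam: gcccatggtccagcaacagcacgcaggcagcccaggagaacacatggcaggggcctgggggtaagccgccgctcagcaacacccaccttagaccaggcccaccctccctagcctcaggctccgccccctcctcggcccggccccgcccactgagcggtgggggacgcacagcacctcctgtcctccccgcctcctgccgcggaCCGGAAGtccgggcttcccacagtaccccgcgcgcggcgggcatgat
Perm1: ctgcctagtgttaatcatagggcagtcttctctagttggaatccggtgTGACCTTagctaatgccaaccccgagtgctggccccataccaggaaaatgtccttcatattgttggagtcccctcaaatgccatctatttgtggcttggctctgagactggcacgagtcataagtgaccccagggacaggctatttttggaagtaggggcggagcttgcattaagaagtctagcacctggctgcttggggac

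The motifs were searched on both strands of 32851 promoter windows, each running 250 bases before to 50 bases after a start. The GABP letters CCGGAAG were in 8.86% of all windows, and of the 9 genes of the set with a window, in *Gabpa* and *Tfam*. The NRF1 letters GCGCATGC were in 2.71% of windows, and in *Esrra* and *Tfb2m*. The short CRE, TGACG, which the full CRE contains, was in 20.8% of windows, and in *Ppargc1a* and *Esrrb*. The full CRE, TGACGTCA, was in 1.79% of windows and the ERR motif AAGGTCA in 4.72%, and 0 of the 9 genes held either. Outside the set, *Perm1* was searched with *Ucp3*, *Pdk4*, *Txnip*, *Acot2* and *S100a11*, which are described below. Of these, only *Perm1* held the ERR motif, and *Ucp3*, *Acot2* and *S100a11* held the short CRE. *Esrrg* has 4 windows, and *Esrrb* and *Nrf1* have 2 each. A match of letters is a description and not evidence of binding. A window for *Ppargc1b* was not used here.

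Of the 9 measured genes, 8 were called above background, which left out only *Pprc1*. Signals are given as the log2 values deposited, where the lowest on any array was 1.99 and the highest 19.93. Background on each array was the 95th percentile of 1091 odorant receptor genes, between 5.25 and 5.32. A gene was called when its distance above that cutoff passed an adjusted p of 0.05 in limma over all genes, and 43.5% of the 19505 genes were called. The median distance was 4.91 over the 9 genes and -0.12 over all genes. By a rule without a model, a signal above the cutoff in every mouse, the count was also 8 of 9, where 42.5% of all genes passed. Probe sets differ in how strongly they bind their transcript, so that the order of signals between genes need not be that of their mRNA. The p-values set a gene's mean distance from the cutoff against the spread between 5 mice of 1 group, and do not test that spread.

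**Figure D1:**
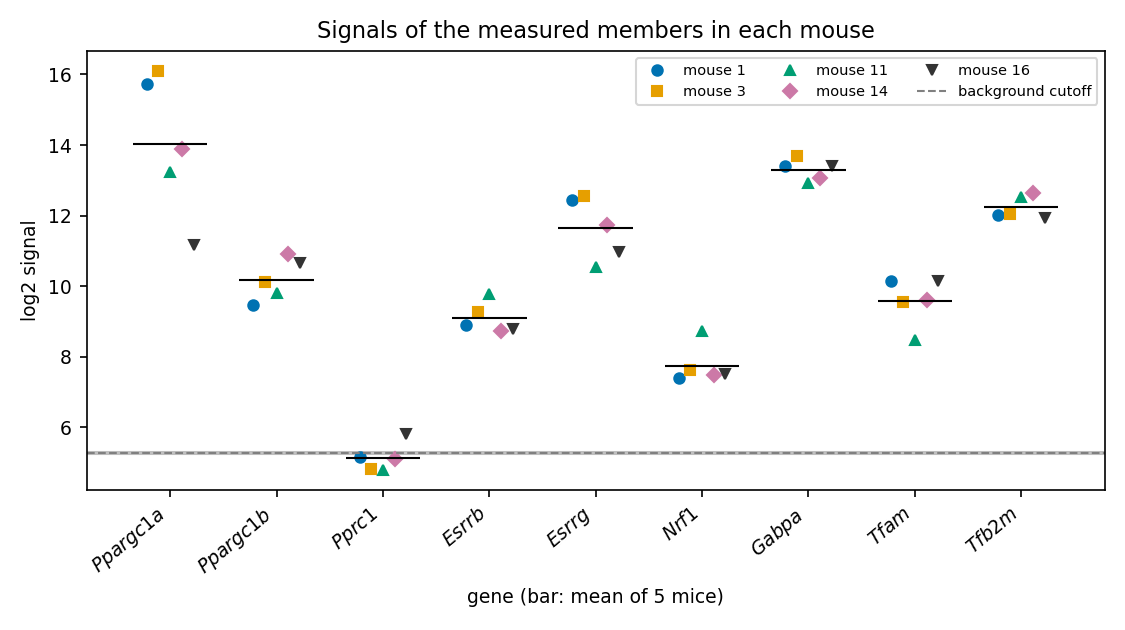
Log2 signal of the 9 measured genes in each of 5 mice (points, 1 symbol per mouse), with the mean of the mice as a bar and the background cutoff as a dashed line over a grey band of its range. *Ppargc1a* runs from 11.17 to 16.11, while the mice of *Gabpa* and *Tfb2m* lie close together, and *Pprc1* straddles the cutoff.

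Among the coactivators, *Ppargc1a* was far above background and varied most between mice. It read 15.73, 16.11, 13.22, 13.88 and 11.17 in mice 1, 3, 11, 14 and 16. Mice 1 and 3 were high, mice 11 and 14 intermediate and mouse 16 low, with 4.94 log2 units between mice 3 and 16. The mean was 14.02 ± 2.01 (SD, n = 5), 8.74 above the cutoff (SE 0.55, limma adjusted p = 2.28e-08). *Ppargc1b* encodes PGC-1β, the close relative that sustains basal mitochondrial gene expression. It read 9.46, 10.12, 9.80, 10.91 and 10.65 in mice 1, 3, 11, 14 and 16, so that mouse 1, high in *Ppargc1a*, was its lowest. Its mean was 10.19 ± 0.60 (SD, n = 5), 4.91 above the cutoff (SE 0.21, limma adjusted p = 4.73e-10). *Pprc1*, which encodes the third member of the family, PRC, known as a serum-induced gene of dividing cells, read 5.17, 4.83, 4.81, 5.11 and 5.81. Only mouse 16 lay above the cutoff. Its mean was 5.15 ± 0.41 (SD, n = 5), a distance of -0.13 ± 0.17 (SE; limma adjusted p = 0.476), which does not show that the transcript was absent. Against the 50th percentile of odorant receptor genes, *Pprc1* was called, at 1.12 (adjusted p = 7.04e-05 from limma).

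The ERRs are orphan nuclear receptors that need no ligand, and PGC-1 proteins act as their coactivators. *Esrrg*, for ERRγ, a driver of the oxidative fiber program, read 12.44, 12.57, 10.56, 11.74 and 10.98 in mice 1, 3, 11, 14 and 16. Mice 3, 1 and 14 came in the same order as for *Ppargc1a*, and mice 11 and 16 exchanged places at the bottom. The mean was 11.66 ± 0.88 (SD, n = 5), 6.38 above the cutoff (SE 0.27, limma adjusted p = 4.21e-10). *Esrrb*, for ERRβ, known from stem cells and the inner ear, read 8.90, 9.26, 9.79, 8.73 and 8.79 in the same mice, highest in mouse 11, where *Esrrg* was lowest. Its mean was 9.10 ± 0.44 (SD, n = 5), 3.82 above the cutoff (SE 0.18, limma adjusted p = 1.03e-09).

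Of the nuclear respiratory factors, *Gabpa*, for the DNA-binding subunit of GABP, which is itself also known as NRF2, was far above background and steady. It read 13.40, 13.70, 12.91, 13.06 and 13.40 in mice 1, 3, 11, 14 and 16, and the whole range was under 1 unit. Its mean was 13.30 ± 0.31 (SD, n = 5), 8.02 above the cutoff (SE 0.16, limma adjusted p = 4.07e-13). *Nrf1*, for nuclear respiratory factor 1, which binds GC-rich sites of respiratory chain genes, read 7.41, 7.62, 8.73, 7.48 and 7.52. Mouse 11 stood above the other 4, which lay close to each other. The mean was 7.75 ± 0.55 (SD, n = 5), 2.48 above the cutoff (SE 0.20, limma adjusted p = 2.07e-07). Without mouse 11 the SD of *Nrf1* was 0.086.

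Both measured factors that act inside mitochondria were called. *Tfam*, whose protein packages mitochondrial DNA and bends its promoters, read 10.16, 9.55, 8.47, 9.61 and 10.15 in mice 1, 3, 11, 14 and 16. It was lowest in mouse 11, the mouse where *Nrf1* was highest, and nearly equal in mice 1 and 16, the second highest and the lowest for *Ppargc1a*. The mean was 9.59 ± 0.69 (SD, n = 5), 4.31 above the cutoff (SE 0.22, limma adjusted p = 3.55e-09). *Tfb2m*, for the factor that melts the mitochondrial promoter for the polymerase, read 12.02, 12.06, 12.54, 12.65 and 11.94 in mice 1, 3, 11, 14 and 16. The mice lay close together, and mouse 16 was the lowest. Its mean was 12.24 ± 0.33 (SD, n = 5), 6.96 above the cutoff (SE 0.16, limma adjusted p = 1.35e-12).

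The spread between mice separated *Ppargc1a* from the other genes of the set. Its SD of 2.01 was above that of 99.9% of the 8482 called genes, of which 9 had a larger SD. *Esrrg* followed, with an SD above that of 96.7% of called genes, then *Tfam* with 91.7%. *Ppargc1b* lay above 85.7%, *Nrf1* above 81.3% and *Esrrb* above 65.8% of called genes. *Tfb2m* and *Gabpa* were among the steadier genes, above 41.6% and 37.9%. The median SD was 0.55 over the 9 genes and 0.36 over all called genes, and 7 of the 9 lay above the latter. The mice did not move as 1 block: of the 9 genes, 3 were highest in mouse 3, 2 each in mice 11 and 14, and 1 each in mice 1 and 16. Mouse 11 was lowest in 4, and the median SD without it was 0.33. No array was repeated, so the spread holds differences between animals and between preparations together and was not tested. Without mouse 16, the SD of *Ppargc1a* was 1.40.

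**Figure D2:**
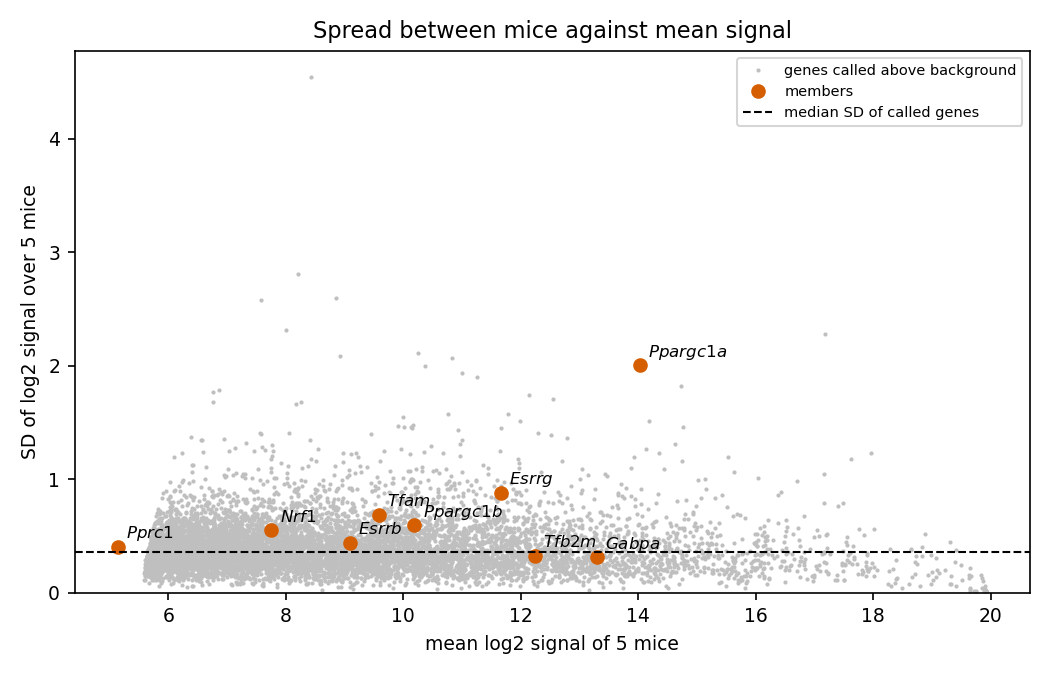
SD of the log2 signal over 5 mice against the mean log2 signal, for the 8482 genes called above background (grey) and the 9 measured genes of the set (orange), with the median SD of called genes as a dashed line. *Ppargc1a* stands apart at an SD of 2.01, and *Pprc1*, which was not called, lies left of the called genes.

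The 5 genes whose profile over mice lay nearest that of *Ppargc1a* were *Ucp3*, *Txnip*, *Pdk4*, *Acot2* and *S100a11*. Likeness was measured as the root mean square distance between signals centred on each gene's mean, over 5 mice and the 8481 other called genes, so a gene had to vary about as widely as *Ppargc1a* to rank high. The nearest was *Ucp3*, for a mitochondrial carrier that rises in muscle with fasting, at a distance of 0.34. It read 13.71, 14.57, 12.04, 12.34 and 10.12 in mice 1, 3, 11, 14 and 16, in the same order of mice as *Ppargc1a*. Then came *Txnip*, whose product restrains glucose uptake, at 0.79, with 18.48, 18.79, 16.99, 17.97 and 15.92. *Pdk4*, for the kinase that shuts pyruvate dehydrogenase during fasting, was at 0.80, with 18.85, 18.90, 17.85, 16.96 and 13.37. *Acot2*, for a mitochondrial acyl-CoA thioesterase, was at 0.84, with 13.46, 13.95, 13.11, 12.99 and 10.44. In each of these 4 genes, mice 3 and 1 were the highest and mouse 16 the lowest, a likeness for which they were picked. *S100a11*, for a calcium-binding protein, was at 0.87, with 11.33, 11.27, 9.45, 10.11 and 8.88, and was highest in mouse 1. This ranking rested on mouse 16: without it, 1 of these 5 genes was still among the nearest 5, and *Ucp3* ranked 2 behind *Ipw*, as it did over mice 3, 11 and 14 alone. With any other single mouse left out, *Ucp3* stayed nearest and between 2 and 4 of the 5 were kept.

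**Figure D3:**
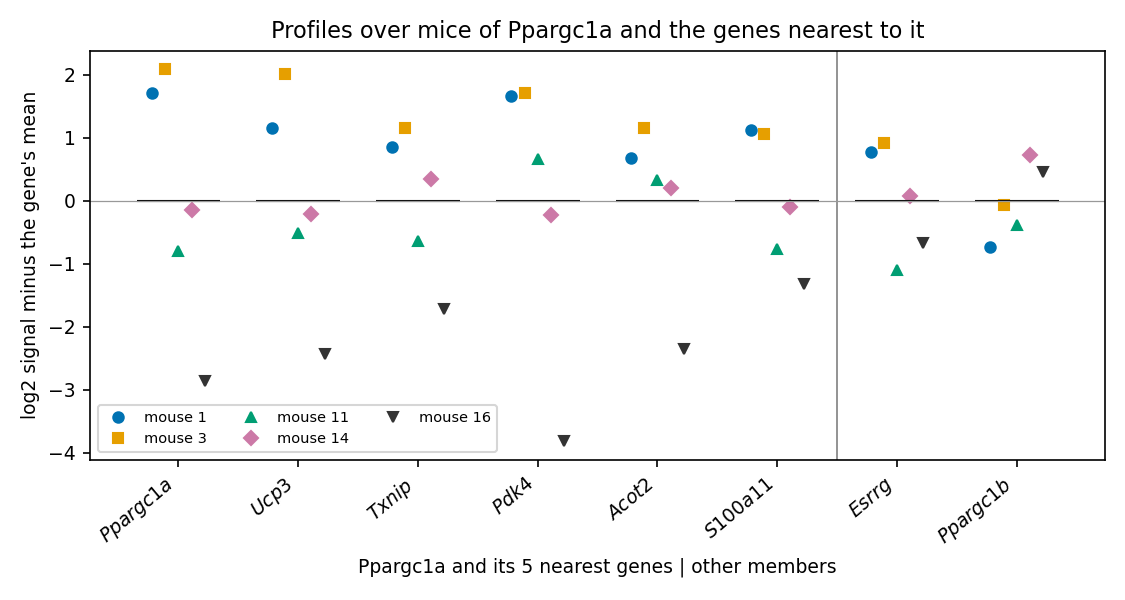
Log2 signal minus the gene's own mean in each of 5 mice (points, 1 symbol per mouse) for *Ppargc1a*, the 5 genes nearest to it and, right of the line, *Esrrg* and *Ppargc1b*. Mouse 16 is the lowest point of *Ppargc1a* and of its 5 nearest genes, and mice 1 and 3 are the highest. The 5 genes were picked for this likeness, and *Ppargc1b*, which is arranged differently, was not.

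Of the other genes of the set, *Esrrg* was the nearest to *Ppargc1a*, at rank 36 with a distance of 1.20, and its rank lay between 28 and 73 over single mice left out, the lowest standing without mouse 3. Among genes of the lists described below, *Fnip1* was at rank 12 (0.96), *Angptl4*, a lipase inhibitor raised by fatty acids, at rank 17 (1.06), *Lpin1* at rank 56 (1.26), *Ppara*, the fatty acid receptor, at rank 65 (1.28) and *Perm1* at rank 81 (1.32). The exact order of mice seen in *Ppargc1a* (3, 1, 14, 11, 16) was found in 77 of 8481 called genes (0.908%). Of the called genes on the lists below, *Ucp3* and *Lpin1* had it, as did the fast fiber marker *Tnnt3* at 19.64 ± 0.02 (SD, n = 5). Of the other 7 called genes of the set, 0 did. *Nr4a1*, which contraction induces in muscle along with *Ppargc1a*, was arranged differently, with 10.73, 10.93, 13.37, 12.96 and 11.77 in mice 1, 3, 11, 14 and 16. These likenesses are descriptions over 5 mice that also share their arrays.

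Regulators known to raise PGC-1 level or activity were called in 21 of 22 cases, where 43.5% of all genes were. The brightest signals were those of the calcineurin catalytic subunit *Ppp3cb* at 15.68 ± 0.34 and *Mef2d*, a transcription factor that binds the *Ppargc1a* promoter, at 15.25 ± 0.49 (SD, n = 5 each). *Mef2c* at 13.87 ± 0.85 and *Foxo1* at 7.32 ± 0.82 varied most (SD, n = 5 each). The AMPK catalytic subunit *Prkaa2* had 14.61 ± 0.26 and the deacetylase *Sirt1*, which activates PGC-1α, 10.23 ± 0.23 (SD, n = 5 each). *Camk4*, a calcium-dependent kinase, was the exception, at 4.88 ± 0.50 (SD, n = 5) and below the cutoff in all mice. Of 9 measured genes known to restrain PGC-1, 8 were called against 43.5% of all genes, with *Fnip1*, a folliculin partner, at 11.97 ± 1.14 and *Flcn* itself at 11.93 ± 0.45 (SD, n = 5 each). *Fnip1* read 12.99, 13.35, 11.61, 11.07 and 10.82 in mice 1, 3, 11, 14 and 16, so mice 1 and 3 were again the highest and mouse 16 the lowest. *Fbxw7*, for a ubiquitin ligase subunit, varied next most at 9.15 ± 0.63, and *Nrip1*, for the corepressor RIP140, had 11.05 ± 0.44 (SD, n = 5 each). *Twist1*, for a factor that represses PGC-1 targets, was below the cutoff in all mice, at 4.40 ± 0.46 (SD, n = 5), and was not called.

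Of 20 measured partners, 18 were called against 43.5% of all genes, with a median distance of 3.89. *Perm1* gave the brightest signal at 16.14 ± 0.54, followed by *Lpin1*, for lipin 1, a PGC-1α coactivator and phosphatidate phosphatase, at 14.85 ± 0.65 (SD, n = 5 each). *Perm1* read 16.60, 16.69, 16.05, 15.98 and 15.36 in mice 1, 3, 11, 14 and 16, again with mouse 16 lowest, over a narrower range than *Ppargc1a*. The retinoid receptor *Rxrg* at 9.78 ± 0.88 and *Ppara* at 9.67 ± 0.88 had the largest SDs (n = 5 each). Without mouse 16 the SD of *Ppara* was 0.34, that of *Lpin1* 0.30 and the median SD of the partners 0.35, against 0.54 with it. *Pparg*, the adipocyte receptor, was above the cutoff in every mouse by little, at 5.51 ± 0.15 (SD, n = 5), and was not called, nor was the corepressor *Nr0b2* at 4.70 ± 0.31 (SD, n = 5). Against the 90th percentile, *Pparg* was called, at a distance of 0.51 (limma adjusted p = 0.0041). The partners of GABPA, *Gabpb1* at 6.37 ± 0.53 and *Gabpb2* at 6.07 ± 0.30 (SD, n = 5 each), were both called, but *Gabpb2* was not against the 99th percentile (distance 0.26, limma adjusted p = 0.143). *Hcfc1*, for the host cell factor that binds PRC and GABP, was called at 6.70 ± 0.55 (SD, n = 5).

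Of 19 genes that copy, transcribe or bind mitochondrial nucleic acids, 15 were called against 43.5% of all genes, with a median distance of 1.74. The brightest signals were those of the single-stranded DNA-binding protein *Ssbp1* at 14.12 ± 0.22 and *Lrpprc*, which stabilizes mitochondrial mRNA, at 11.58 ± 0.40 (SD, n = 5 each). The elongation factor *Tefm* had 10.74 ± 0.19, while the polymerase *Polrmt* had 6.89 ± 0.28 and *Tfb1m*, the paralog of *Tfb2m* that methylates ribosomal RNA, 7.46 ± 0.45 (SD, n = 5 each). *Mterf3* at 8.82 ± 0.64 and *Mterf2* at 8.89 ± 0.54 varied most among the called (SD, n = 5 each). The 4 not called were the subunits of the replicative polymerase *Polg* at 5.57 ± 0.52 and *Polg2* at 5.21 ± 0.69, *Mterf1b* at 5.41 ± 0.31 and *Primpol* at 3.91 ± 0.38 (SD, n = 5 each). Without mouse 11, *Polg* was called, at a distance of 0.50 (limma adjusted p = 0.0137), and against the 90th percentile both *Polg* and *Mterf1b* were called, at 0.57 and 0.41 (limma adjusted p = 0.0153 and 0.029). *Mterf1a* and *Mterf1b* are near-identical copies, and how the array separates them is uncertain. At the 50th percentile 18 of the 19 were called, and 11 was the lowest count over the alternatives.

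All 24 measured target genes of these factors were called, against 43.5% of all genes, with a median distance of 11.44. The fatty acid carrier *Fabp3* at 19.89 ± 0.02 and the ATP synthase subunit *Atp5b* at 19.65 ± 0.05 gave the brightest signals (SD, n = 5 each), close to the highest value on any array, 19.93. *Pdk4* at 17.19 ± 2.28 and *Ucp3* at 12.55 ± 1.70 had the largest SDs (n = 5 each). Both rested in part on mouse 16, without which the SD was 0.92 for *Pdk4* and 1.19 for *Ucp3*, and over mice 3, 11 and 14 alone 0.97 and 1.38. The other 22 targets had SDs between 0.016 and 0.64, with a median of 0.25. Respiratory chain and Krebs cycle genes such as *Cycs* at 18.72 ± 0.17, *Cox4i1* at 17.02 ± 0.24, *Ndufs1* at 16.14 ± 0.13 and *Cs* at 17.88 ± 0.24 (SD, n = 5 each) were within these limits. Of genes known to rise with *Ppargc1a* after exercise or fasting, all 10 measured were called, against 43.5% of all genes, and their median SD was 0.98, or 0.91 without mouse 16, with 9 of 10 above the median of called genes. *Hk2*, for hexokinase 2, had the smallest SD of this list, at 14.95 ± 0.28 (SD, n = 5). The orphan receptor *Nr4a3* read 8.64, 10.20, 8.76, 7.57 and 5.71 in mice 1, 3, 11, 14 and 16, highest in mouse 3 and lowest in mouse 16, and its SD of 1.67 was 1.08 without mouse 16. Its relative *Nr4a2* read 6.06, 6.23, 7.12, 6.46 and 7.92, highest in mouse 16, and *Sik1*, for a kinase induced by cyclic AMP, ran from 9.17 in mouse 3 to 11.14 in mouse 11. Of the 10 genes, 5 were highest in mouse 3 and 5 were lowest in mouse 16. These lists were drawn up with earlier results of these data known, and no list was tested as a set.

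**Figure D4:**
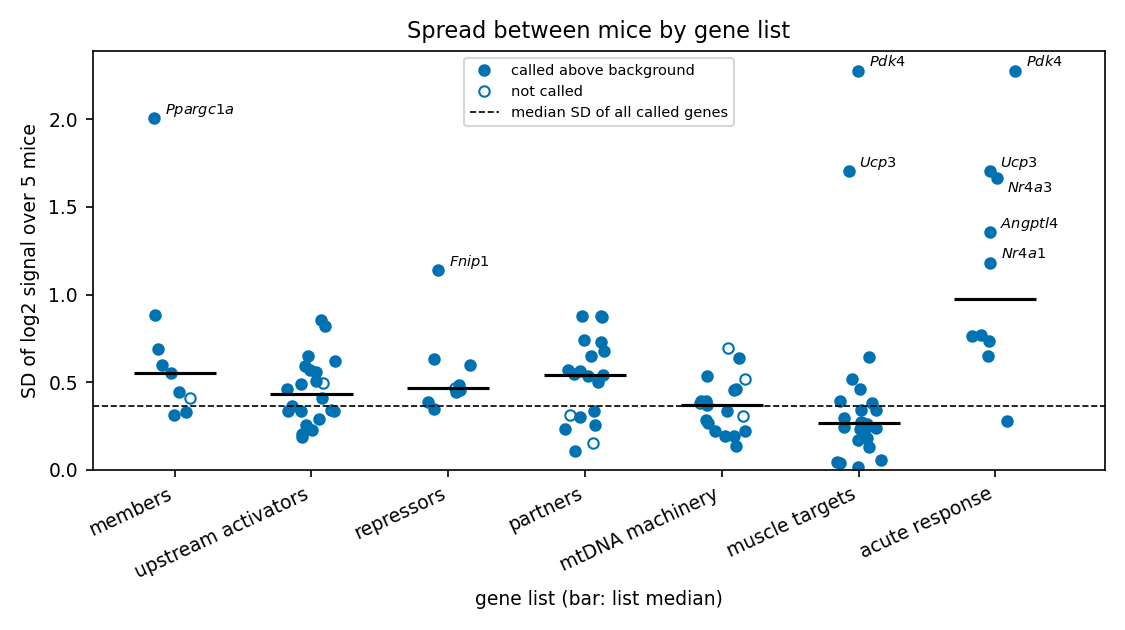
SD of the log2 signal over 5 mice for each measured gene (points, filled where called above background) of the set and of 6 lists, with list medians as bars and the median SD of all called genes, 0.36, as a dashed line. *Pdk4* and *Ucp3* stand above the other 22 muscle targets, and the acute response list has the highest median, 0.98; *Pdk4*, *Ucp3* and *Lpin1* are in 2 lists each, and the SD of *Pdk4*, 2.28, was 0.92 without mouse 16.

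The pulldown carried the markers of myofibers, with all 7 slow, 7 fast and 6 general fiber genes called. *Rpl22*, the tagged gene, had 12.12 ± 0.53 and *Myog* 7.12 ± 0.69 (SD, n = 5 each), and both were highest in mouse 16. Array medians lay between 5.11 and 5.20. Of markers of other cells, all 5 measured genes of fibroblasts were called, 4 of 8 of endothelium, 3 of 5 of smooth muscle, 2 of 5 of the satellite cell list, 1 of 2 of Schwann markers, 1 of 4 of white and 1 of 4 of brown adipocytes, and 0 of 5 of immune cells, where 43.5% of all genes were called. Brown fat also uses PGC-1α, and its defining gene *Ucp1*, at 3.19 ± 0.29 (SD, n = 5), was below the cutoff in all mice. The mean signal of the fibroblast list was 7.43, 7.95, 6.61, 7.20 and 7.75 in mice 1, 3, 11, 14 and 16. It was highest in mouse 3, with the most *Ppargc1a*, and second highest in mouse 16, with the least. The endothelial list ran from 5.44 to 5.85 and the smooth muscle list from 6.36 to 7.07, and mouse 16 was lowest in both, with mouse 14 highest. The general fiber list ran from 17.72 to 17.93, with *Acta1* and *Mb* at the highest value of each array. Fast *Myh4* read 16.72, 18.45, 17.69, 19.83 and 17.10 in mice 1, 3, 11, 14 and 16, highest in mouse 14. Slow *Tnni1* read 19.54, 19.02, 19.52, 18.67 and 19.75 in the same mice, lowest in mouse 14. Each had the largest SD of its list. The median SD was 0.04 over the fast, 0.15 over the slow and 0.30 over the general fiber list. Fast *Myh2* and *Atp2a1* also sat at the highest value of each array. Mean signals of the mice lay between 19.2 and 19.6 for the slow list and between 18.9 and 19.5 for the fast list. SDs so near the ceiling do not show that fiber type was steady. The part of these cells and fiber types in the spread of *Ppargc1a* was not tested. Mice 1 and 16, without *Eif2s3y* signal, lay near opposite ends of the *Ppargc1a* range. Over mice 3, 11 and 14 alone, 8 of 9 genes of the set were again called, and the SD of *Ppargc1a* was 1.51.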

How the data were processed

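RNA eluted from the anti-HA pulldown of 5 left soleus muscles was hybridized by the authors to Affymetrix mouse Clariom S arrays (Pico assay). The authors deposited log2 signals made with Transcriptome Analysis Console 4.0 in its default configuration. The sources used here name neither its algorithm nor a genome build, so a step of 1 unit cannot be read as a known fold of RNA. Arrays have no sequencing depth. Precision is limited by how many there are.

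The deposited table held 22206 probe sets, 19572 with 1 symbol in the platform annotation, 0 with several and 2634 with none. Probe sets of a gene were averaged. Signal minus the array's 95th percentile of odorant receptor genes was set against 0 (limma 3.58.1 under R 4.3.3, eBayes, two-sided, Benjamini-Hochberg over 19505 genes). Tested on simulated data of 19505 genes, this fit called 4, 160, 192 and 199 of 200 genes placed 0, 0.5, 1 and 2 units above the cutoff. The simulated noise was normal and drawn independently for each gene at its own SD. Effects that genes share on an array were therefore not covered. It called 5 of 319 vomeronasal receptor genes. Python 3.11.15, with pandas 2.3.3 and numpy 2.4.6, was used for summaries.

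The members, lists and tests were chosen with earlier results of these data known. Genes named were all members, of each list the 2 with the highest mean and the 2 with the largest SD among those called, all not called where 5 or fewer, and the 5 nearest *Ppargc1a*. *Prkaa2*, *Sirt1*, *Nrip1*, *Gabpb1*, *Gabpb2*, *Hcfc1*, *Tefm*, *Polrmt*, *Tfb1m*, *Nr4a1*, *Nr4a3*, *Angptl4*, *Cycs*, *Cox4i1*, *Ndufs1*, *Cs*, *Mterf1a*, *Nr4a2*, *Sik1*, *Myh4*, *Myh2*, *Atp2a1*, *Tnnt3*, *Tnni1*, *Acta1*, *Mb*, *Ucp1*, *Rpl22*, *Myog* and *Eif2s3y* were added after their values were seen. Some genes of the lists were not analysed here. Alternatives were other background sets and percentiles, a trended and robust prior, no model, quantile normalization done again, the brightest probe set of a gene, low genes filtered out, each mouse left out, and mice 3, 11 and 14 alone.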

Additional observations from a re-analysis of the deposited data

Results flagged for a closer look

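A mouse stood apart from the other 4 in 7 of the 64 named genes that were checked. Chance alone flags about 1 in 20 groups, but many of these genes were named for their spread or profile or after their values were seen, so no expected count applies to them. The measure was the gap to the nearest mouse over the whole range, with a limit of 0.71 for 5 mice. Of the set itself, only *Nrf1* was among them, with a ratio of 0.85 for mouse 11, its highest. On the lists, the ratio was 0.76 for *Camk4*, lowest in mouse 14 at 4.02, and 0.74 for *Mterf2*, highest in mouse 14 at 9.82. It was 0.73 for *Primpol*, lowest in mouse 11 at 3.25, and *Camk4* and *Primpol* were not called above background. For *Fabp3*, lowest in mouse 16, the ratio was 0.73 with an SD of 0.02 and a mean of 19.89, where the highest value was 19.90 on the array of mouse 16 and 19.93 on the other 4, so all 5 readings lay close to the ceiling of their array. For *Acot2*, lowest in mouse 16 at 10.44, it was also 0.73. For *Sirt1*, lowest in mouse 14 at 9.83, it was 0.72. The ratio of *Ppargc1a* was 0.42. Not among the 64 were *Mterf1a*, *Tnnt3*, *Acta1*, *Mb*, *Myh2* and *Atp2a1*. Of these, *Acta1*, *Mb*, *Myh2* and *Atp2a1* had a ratio of 1 for mouse 16, and all sat at the ceiling of every array.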

How the results depend on the processing

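The count of called genes of the set was 8 or 9 over the 16 alternatives, and 9 only where the 50th percentile set the cutoff. There, 12814 of all genes were called. Distances of the 8 called genes kept their direction and side of the threshold in every alternative run, with *Nrf1*, the nearest to the cutoff, between 1.92 and 3.72. The distance of *Pprc1* was 1.12 at the 50th and 0.15 at the 90th percentile (adjusted p = 7.04e-05 and 0.429 from limma). It could not be given with low genes left out, since that filter removed the gene. Over single mice left out, its distance ran from -0.30 to -0.05, and the median SD of the set from 0.33 to 0.63, the lowest without mouse 11. Without that mouse the SDs of *Esrrb* and *Tfam* were 0.24 and 0.33, and that of *Pprc1* was 0.19 without mouse 16. Of the 55 other named genes followed over the alternatives, 10 changed direction or side somewhere. Reversed values were -0.10 (*Mterf1b*) against vomeronasal receptors; -0.32 (*Pparg*), -0.42 (*Mterf1b*) and -0.26 (*Polg*) against keratin-associated and defensin genes; 0.85 (*Camk4*), 0.37 (*Twist1*), 0.67 (*Nr0b2*) and 1.18 (*Polg2*) at the 50th percentile; 0.21 (*Polg2*) at the 90th; and -0.30 (*Pparg*), -0.41 (*Mterf1b*) and -0.25 (*Polg*) at the 99th. Calls were gained at the 90th percentile by *Pparg*, *Mterf1b* and *Polg*, and also at the 50th, at 1.48, 1.38 and 1.54. Over single mice left out, *Polg2* ran from -0.27 to 0.17, above 0 without mouse 3 or 11. List counts stayed within 1.5 times of those given. The number of the 5 genes nearest *Ppargc1a* that were kept was between 1 and 4 over mice left out and 1 over mice 3, 11 and 14, alternatives chosen after seeing the data. It was 5 after quantile normalization. No paired analysis was possible because the design holds 1 group.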
